A study of Mus musculus with 39 samples.

Results

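In 7438 mouse mammary cells, 1232 chromatin sites carried the estrogen receptor (ER) when dexamethasone and estradiol were given together, carried no called ER site with estradiol alone, lay on a site of the glucocorticoid receptor (GR) with dexamethasone, and had no ER site with both hormones in cells that also expressed Afos. They were 1232 of 1895 ER sites gained on GR sites, and of 11982 ER sites in the list they were drawn from. Members were chosen by overlap of at least 1 bp: a site of the 7438 ER list named Both, no overlap with the 7438 ER E2 list, an overlap with the 7438 GR Dex list, and no overlap with either ER Dex+E2 list of 7438 Afos cells. They are called ER-absent sites here. The other 663 gains, which overlapped an Afos ER Dex+E2 site in at least 1 replicate, are called ER-retained sites. The 4 properties in the rule are descriptions and not findings. What the Afos GR lists held at these sites was not used to choose them.

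The 7438 line carries a GFP-tagged GR and a Cherry-tagged ER that are expressed from a tetracycline-regulated promoter, and the Afos derivative expresses Afos from such a promoter as well. Cells of both kinds had tetracycline withdrawn and then received nothing, dexamethasone (Dex, which activates GR), estradiol (E2, which activates ER) or both (Dex+E2), each hormone at 100 nM, for 30 min, and chromatin was precipitated with antibody cocktails against GR or ER. Each Afos treatment had 2 replicate lists of called sites for each receptor, and each 7438 treatment had a single list. Receptor levels were therefore those of the induced transgenes, and the labels do not say whether the lines are single clones or whether replicates came from separate cultures, so p-values cover only the spread between these libraries.

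GR and ER are ligand-activated transcription factors of the nuclear receptor family. Each binds its own palindromic response element as a dimer, and both can also occupy DNA through other factors, among them AP-1, a dimer of Fos and Jun proteins. In mouse mammary cells AP-1 is known to keep chromatin accessible at many GR sites. The labels do not explain the name Afos; the protein A-Fos, an engineered Fos, pairs with Jun proteins and prevents their binding to DNA.

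For 4 of the 8 lists of 7438 cells the file name and the sample label disagree. The ER and GR lists named for both hormones are filed under the label untreated, and those named unt under the label Dex+E2. The names were followed here, since the rule that defines the sites does so, and the list is called by its name. Read by label, the rule starts from 373 ER sites, leaves 80 gains on GR sites and 77 that are absent with Afos, of which 49 had GR in at least 1 Afos list with Dex or Dex+E2. All values below rest on the reading by name. Sites in the 7438 lists were 150 bp wide, and the median width in the Afos lists lay between 335 and 602 bp. Sequencing depth is unknown because the lists give sites and no read totals. The intervals given are exact binomial 95% intervals and cover counting error only.

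GR itself remained called at most ER-absent sites in Afos cells treated with Dex or Dex+E2. With Dex it was present at 862 of the 1232 sites in replicate 1 (69.97%, interval 67.3 to 72.5%) and at 670 in replicate 2 (54.4%, 51.6 to 57.2%). With Dex+E2 it was present at 889 (72.2%, 69.6 to 74.6%) and at 954 (77.4%, 74.996 to 79.7%). Among all 3014 ER sites of the same list that overlap a GR Dex site, the corresponding backgrounds were 69.6% and 53.4% with Dex, and 77.0% and 81.5% with Dex+E2. The ER-absent sites were thus near the background in the Dex lists and below it in both Dex+E2 lists. Among all 11982 ER sites of the list the shares were 20.2%, 14.6%, 46.2% and 35.6%, and among all 12084 GR sites of the 7438 Dex list they were 59.8%, 40.3%, 60.5% and 62.2%, below the ER-absent sites in each list. The ER-absent sites were also stronger GR sites than that list as a whole, with a median GR tag density of 39.7 against 20.9.

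GR at these sites was found where Dex had been given. Without Dex, GR was called at 8 and 24 of the 1232 sites in the 2 untreated Afos lists (0.649% and 1.95%; background over ER sites with GR 1.39% and 3.52%). In the 2 E2 lists it was called at none of them, which allows a share of up to 0.244%, taken as 3 counts of 1232 (the exact interval ends at 0.299%; background 1.69% and 0.697%). The mean share was 68.5% over the 4 lists with Dex and 0.649% over the 4 lists without it, a difference of 67.8 percentage points, and every list with Dex lay above every list without. A two-sided exact permutation test over the 8 lists gave p = 0.0286, the smallest that 4 lists against 4 allow. Benjamini-Hochberg adjustment over the 4 tests made gave 0.114, so it did not pass the correction. The untreated lists hold only 95 and 315 sites in all and the E2 lists 490 and 146, against 5136 to 14160 with Dex. Every ER-absent site was also chosen to lie on a 7438 GR Dex site. A large gap was thus favoured beforehand, and the test says little about these sites in particular.

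**Figure D1:**
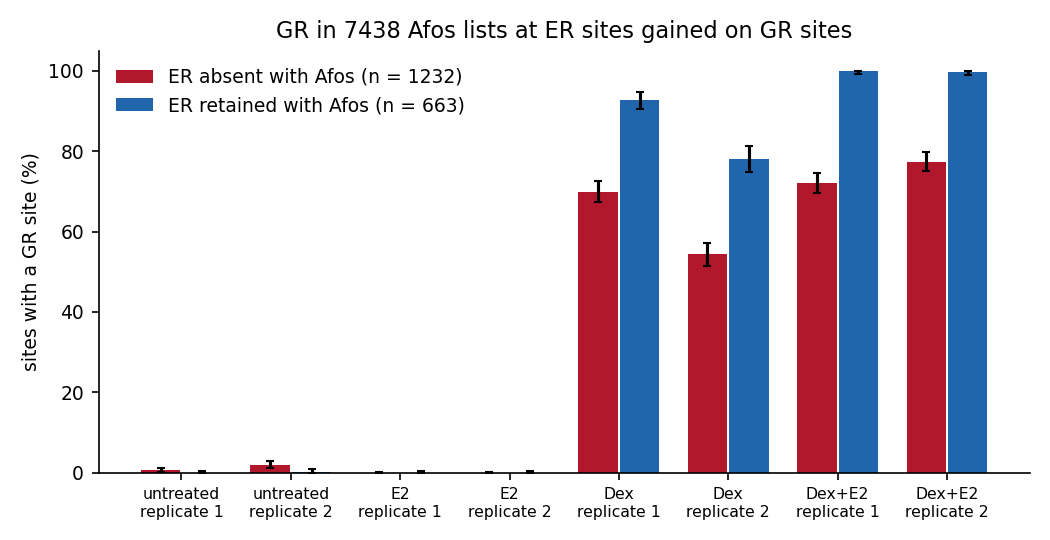
Share of ER-absent (red) and ER-retained (blue) sites that overlap a GR site, in percent, for each of the 8 GR lists of Afos cells; error bars are exact binomial 95% intervals. ER-absent sites lie between 54.4% and 77.4% in the 4 lists with Dex or Dex+E2 and at or below 1.95% in the other 4, and ER-retained sites lie above them in each list with Dex.

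Adding E2 to Dex did not give a separable change of GR at the ER-absent sites. The mean share was 62.2 ± 11.0% (SD, n = 2) with Dex and 74.8 ± 3.73% with Dex+E2. Both Dex+E2 lists were above both Dex lists, but the exact permutation test gave p = 0.333, the smallest possible with 2 lists against 2. The difference of 12.6 points turned to -3.33 when the 4 lists were reduced to equal numbers of sites. It was 23.9 points without replicate 1 and 2.17 points without replicate 2.

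Counted over sites, 656 of the 1232 ER-absent sites had GR in all 4 Afos lists with Dex or Dex+E2 (53.2%, interval 50.4 to 56.1%; background over ER sites with GR 52.5%). A further 351 had GR in some of the 4, of which 141 were in 3 lists, 118 in 2 and 92 in 1. At 225 sites (18.3%, 16.1 to 20.5%) no Afos list with Dex held GR. GR was therefore called at least once at 1007 sites (81.7%, 79.5 to 83.9%; background 84.7%). The 2 treatments were not symmetrical: 137 sites (11.1%) had GR in a Dex+E2 list and in neither Dex list, and 12 (0.974%) had it in a Dex list and in neither Dex+E2 list. Among all 3014 ER sites with GR the same was seen, at 441 (14.6%) and 22 (0.730%). The Dex+E2 lists are the longer ones, with 14160 and 10309 sites against 8873 and 5136.

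In 7438 cells without Afos, GR was called at the ER-absent sites with both hormones at a share near that of ER sites with GR in general. The GR list named Both held 1163 of the 1232 sites (94.4%, interval 93.0 to 95.6%; background over ER sites with GR 95.6%). Of the 656 sites with GR in all 4 Afos lists, 652 were in it, and of the 225 sites with GR in none, 182 were (80.9%).

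The ER-retained sites carried GR in Afos cells more often than the ER-absent ones in each of the 4 libraries. GR was present with Dex at 92.8% and 78.1% of the 663 ER-retained sites, and with Dex+E2 at 99.8% and 99.7%. The differences, ER-absent minus ER-retained, were -22.8 and -23.7 percentage points with Dex, and -27.7 and -22.3 with Dex+E2. The mean over the 4 lists, ER-absent minus ER-retained, was -24.1 points. A two-sided exact sign-flip permutation over the 4 lists gave p = 0.125, the smallest it allows, and 0.167 after adjustment over 4 tests. The groups were split by ER calls in Afos cells with Dex+E2, so the contrast is not independent of that choice. The same sets of sites were scored in all 4 lists, so p covers only the spread between lists. One ER-retained site had GR in none of the 4 lists, against 225 ER-absent sites.

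**Figure D2:**
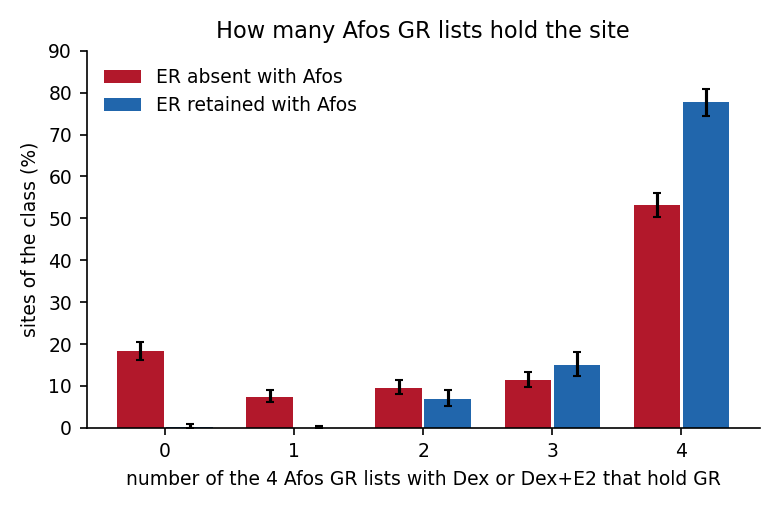
Percent of ER-absent (red) and ER-retained (blue) sites by the number of the 4 Afos GR lists with Dex or Dex+E2 that hold GR; error bars are exact binomial 95% intervals. The ER-absent sites have 18.3% in no list and 53.2% in all 4, and the ER-retained sites have 77.8% in all 4.

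How many Afos lists held GR followed how strong GR had been in 7438 cells. Site strength is the percentile of a site's highest tag density within its own list, because the scaling of tag density is not stated. ER-absent sites with GR in all 4 Afos lists had a median percentile of 91.3 in the 7438 GR Dex list, those with GR in 1 to 3 lists 59.3, and those with GR in none 33.4. The interquartile ranges of the first and last of these groups did not overlap, at 83.4 to 96.6 against 16.8 to 51.5. ER strength in the list named Both was ordered the same way over a smaller range, with medians of 37.5, 27.6 and 24.5.

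The sites were split into 4 classes at the quartiles of 7438 GR Dex strength over all 1895 gains. GR was called in at least 1 Afos list at 47.4% of the 321 ER-absent sites of the weakest class (interval 41.8 to 53.0%), at 84.1% of 308 in the next, at 97.8% of 317 in the third and at all 286 of the strongest. In the strongest class 285 of the 286 sites had GR in all 4 Afos lists, while no ER was called there in either Afos list with both hormones. In the weakest class 10 of 321 sites had GR in all 4.

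ER-absent sites were set beside GR sites of the same strength class that carried no ER with E2 or in the list named Both. The ER Dex list was not considered. Strength is not matched within a class, and the weakest runs from percentile 0 to 52.0. Overlap with the Afos lists was taken from the ER site for the gains and from the GR site for GR sites without ER. Of the 7438 GR Dex sites that overlap no ER site of the lists named Both and E2, GR was called in at least 1 Afos list at 49.9%, 85.1%, 98.9% and 99.6% from the weakest to the strongest class, near the shares of the ER-absent sites. The share with GR in all 4 lists was lower for the ER-absent sites in the 3 weaker classes, at 3.12%, 32.8% and 82.0% against 14.0%, 47.5% and 86.7%, and stood at 99.7% against 99.6% in the strongest. ER-retained sites had GR in at least 1 list at 99.3% of the weakest class and at every site of the other 3, above ER-absent sites in the 3 weaker classes and level with them in the strongest. Between ER-absent and ER-retained sites the mean difference over the 4 lists was -51.1, -32.5, -7.41 and -0.0874 percentage points from the weakest to the strongest GR class.

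**Figure D3:**
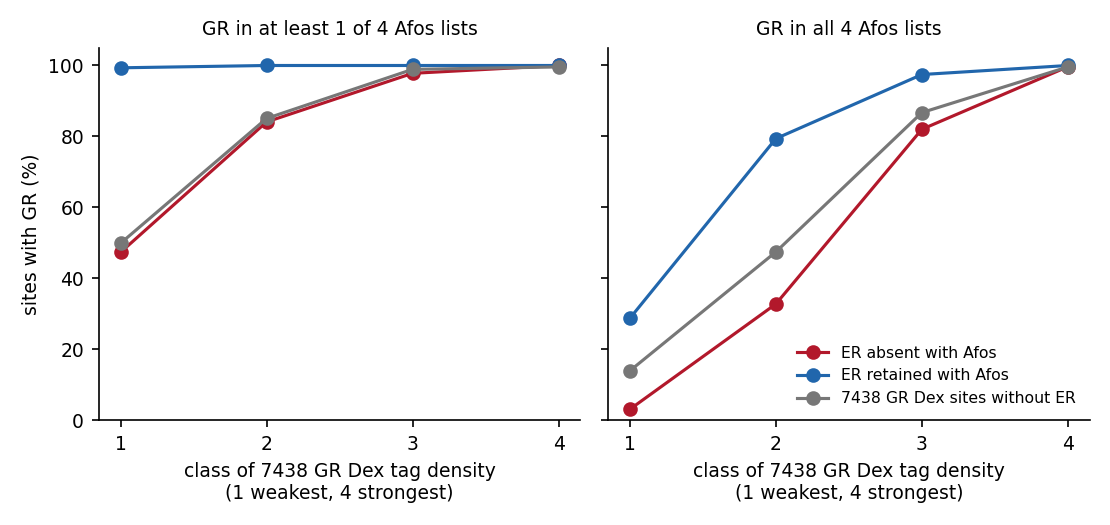
Percent of sites with GR in at least 1 (left) or all 4 (right) Afos GR lists with Dex or Dex+E2, by class of tag density in the 7438 GR Dex list, for ER-absent sites (red), ER-retained sites (blue) and GR Dex sites with no ER in the lists named Both and E2 (grey). The red and grey lines run close together on the left, from 47.4% and 49.9% to 100% and 99.6%, and all 3 groups meet in the strongest class.

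The absence of ER itself was spread over all GR strengths. Among the 1895 gains, 67.7% of the weakest GR class were ER-absent (interval 63.3 to 71.9%), 65.1% and 66.9% of the next classes and 60.3% of the strongest (55.8 to 64.8%). It differed far more with the strength of the ER site. By class of ER tag density in the list named Both the share was 88.8% (85.6 to 91.5%), 79.0%, 58.0% and 34.4% (30.1 to 38.9%). ER-absent sites had a median ER percentile of 31.4 with quartiles at 16.1 and 52.3, and a median highest tag density of 14.2 in a list that begins at 10.2. ER-retained sites had a median percentile of 61.0 and a median density of 21.9. In GR strength the groups were nearer to each other, with medians of 76.9 and 79.9. Both ER strength and the absence call come from lists the rule used, so these values describe the choice of sites, and whether weak ER sites fell under the threshold of the Afos lists was not tested.

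**Figure D4:**
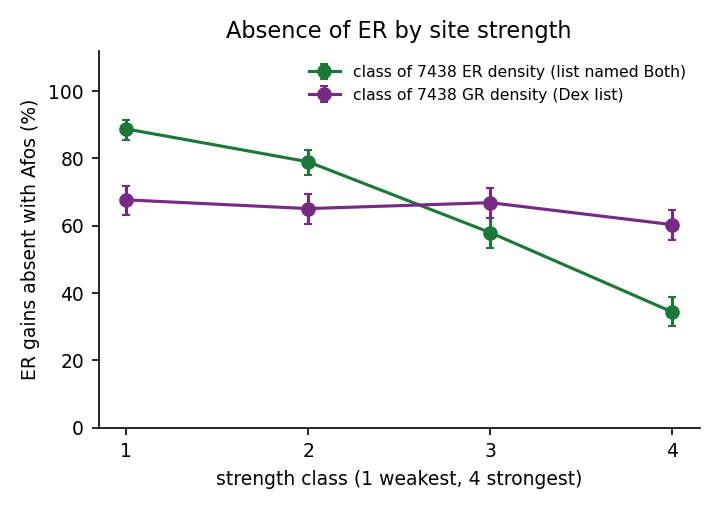
Percent of the 1895 ER gains on GR sites that had no ER site in either Afos Dex+E2 list, by class of ER tag density (green) and of GR tag density (purple) in 7438 cells; error bars are exact binomial 95% intervals. The green line runs from 88.8% to 34.4% and the purple line from 67.7% to 60.3%.

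Gains without a GR Dex site were absent from the Afos lists about as often as gains with one, but ER sites without GR as a whole were not. As a background fixed by the rule's own lists, 58.2% of all 11982 ER sites of the list named Both were in neither Afos ER Dex+E2 list, and 62.6% of the 3014 that overlap a GR Dex site. The share was 65.0% (interval 62.8 to 67.2%) of the 1895 gains on GR sites and 66.7% (65.2 to 68.2%) of the 3789 gains without a GR Dex site, and 56.7% of all 8968 ER sites without a GR Dex site. It was 58.5% of the 1119 sites with GR Dex at which ER was present with E2 alone. The 2 Afos ER lists differ in length, with 5905 and 2564 sites, and the first overlapped 650 of the 1895 gains against 306 for the second.

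ER calls at the ER-absent sites were few in the other Afos treatments, but only the E2 lists are long enough to show many. The Afos ER lists with Dex hold 61 and 41 sites in all and the untreated ones 35 and 49, against 6046 and 4687 with E2. The shares in the Dex and untreated lists were near their backgrounds. With E2 alone it was called at 5 and 4 of the 1232 sites (0.406% and 0.325%; background over ER sites with GR 13.2% and 13.0%), with Dex at 0 and 1 site (background 0.0664% and 0.0995%), and in untreated cells at none, which by the same 3 counts allows up to 0.244% (exact interval to 0.299%; background 0% and 0.0332%). The 2 E2 lists lay above the 4 without E2 by 0.345 points on average (exact permutation test, two-sided, p = 0.0667, the smallest possible, and 0.133 adjusted over 4 tests). With the density and z-score limits of the 7438 lists applied to the Afos lists the difference was 0.0550 points (exact permutation p = 0.733). The E2 share was 6.18% and 4.37% at ER-retained sites. Since the rule removed sites with ER in the 7438 E2 list, low values with E2 were favoured in both groups.

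Where GR was called in both treatments of the same Afos replicate, its density at ER-absent sites with Dex+E2 relative to Dex stayed close to that of GR sites in general. The log2 ratio of highest tag densities was taken for sites in both lists, and the median over all such GR sites of that pair of lists was subtracted, which removes a difference in linear scaling. ER-absent sites had a median of -0.16 in replicate 1 (798 sites) and 0.05 in replicate 2 (667 sites), and 0.06 in 7438 cells (1163 sites). The sign differed between the Afos replicates. ER-retained sites had medians of 0.53 (615 sites) and 0.24 (518 sites) in Afos cells and 0.18 (647 sites) in 7438 cells, positive in all 3 pairs of lists. This was not particular to them. ER sites with GR Dex at which ER was present with E2 alone had medians of 0.17 (574 sites), 0.34 (418 sites) and 0.48 (1070 sites) in the same order. The ER-retained sites were also chosen by ER calls in Afos cells with Dex+E2, so their ratio in Afos cells is not independent of that choice. In replicate 1, 35.0% of ER-absent and 85.5% of ER-retained sites had a ratio above the general median, and in replicate 2, 57.6% and 77.8%. With 2 Afos pairs and 1 pair in 7438 cells no test of this difference was made.

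**Figure D5:**
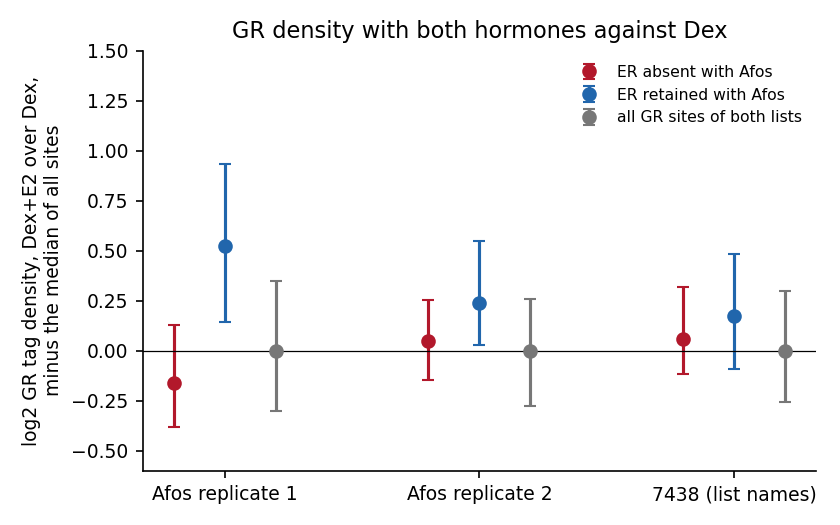
Log2 ratio of GR tag density with Dex+E2 over Dex, minus the median of all GR sites in the same pair of lists, for ER-absent sites (red), ER-retained sites (blue) and all GR sites (grey); points are medians over sites and bars run from the first to the third quartile. The red medians are -0.16, 0.05 and 0.06, and the blue medians 0.53, 0.24 and 0.18.

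The sites named first are those of highest ER density among the 656 ER-absent sites with GR in all 4 Afos lists. GR at them in Afos cells thus follows from the choice, and the rule fixed the lack of an Afos ER Dex+E2 site. Their values are given as description. Coordinates are mm9 as the lists give them. The ER-absent site of highest ER density, chr17:26672810-26672960, had a highest ER tag density of 66.7 in the list named Both, at percentile 93.9 of that list. GR there had a density of 188 with Dex and 125 in the list named Both in 7438 cells, and in Afos cells 75.4 and 58.9 with Dex and 97.0 and 65.2 with Dex+E2. It stood between percentiles 93.8 and 97.3 of the 4 Afos GR lists, and the nearest Afos ER Dex+E2 site was 23063 bp away.

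The next sites in this order were chosen in the same way. At chr17:84519037-84519187 the ER density was 62.1 and the GR density 573 with Dex in 7438 cells, and GR in Afos cells reached 216 and 115 with Dex and 158 and 132 with Dex+E2. At chr2:60538240-60538390 ER reached 54.1, with GR at 113 and 110 in the Afos Dex lists and 97.3 and 127 in the Dex+E2 lists. The nearest Afos ER site was 2795 bp away for the first of these and 372 bp away for the second. The other 2 of the 5 strongest had weaker or like GR: chr13:37763092-37763242, with ER at 51.2, had GR at 20.0 and 11.7 with Dex and 18.8 and 27.4 with Dex+E2 in Afos cells. At chr2:170034880-170035030, with ER at 47.2, GR in Afos cells was 80.2 and 49.8 with Dex and 61.9 and 82.1 with Dex+E2.

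The ER-absent sites of strongest GR were far from weak in Afos cells. The site of highest GR density in the 7438 Dex list, chr1:159005225-159005375, reached 596 with Dex and 351 in the list named Both. In Afos cells it reached 292 and 191 with Dex and 253 and 218 with Dex+E2, at percentile 99.7 or above in each list, while its ER density in 7438 cells was 28.8. At chr4:9371706-9371856, GR was 560 with Dex in 7438 cells and 247, 133, 151 and 179 in the 2 Dex and 2 Dex+E2 lists of Afos cells, with ER at 23.1. At chr6:5393238-5393388, GR was 513 in 7438 cells and 280, 166, 211 and 204 in the same Afos lists, with ER at 21.1. The site chr7:117859247-117859397, with GR at 497 in 7438 cells, had the highest GR rank summed over the 4 Afos lists, at 353, 182, 238 and 227, and an ER density of 45.9. Also among the 3 highest in that order was chr5:127018644-127018794, with 279, 173, 231 and 218 and an ER density of 23.9. These 6 sites had GR in all 4 Afos lists with Dex or Dex+E2, and their ER densities in 7438 cells lay between 21.1 and 62.1. The 3 of highest summed rank were ranked on these same Afos lists, so GR at them there follows from the choice.

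Of the 351 sites with GR in 1 to 3 Afos lists, 137 had it with Dex+E2 and in neither Dex list, and 2 of the 5 with the strongest ER were of this kind. At chr14:26005720-26005870, with an ER density of 48.5, GR was absent from both Afos Dex lists and reached 9.59 and 18.8 with Dex+E2. An Afos ER Dex+E2 site lay 118 bp from it. At chr11:30018286-30018436, with ER at 40.3, GR was again in neither Dex list and reached 12.4 and 13.9 with Dex+E2. The 3 others of the 5 strongest in this group lacked GR only in the second Dex list, the shortest of the 4. They were chr11:86195171-86195321 (ER 41.7; GR 21.9 with Dex, then 13.4 and 15.1 with Dex+E2), chr7:119337871-119338021 (ER 41.4; GR 17.2, then 29.0 and 26.9) and chr1:153522680-153522830 (ER 37.2; GR 11.1, then 31.3 and 23.5).

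The 225 sites with GR in no Afos list had a median GR density of 15.9 in the 7438 Dex list, with a highest value of 68.8, so some were strong GR sites there. The 5 with the strongest ER were chr1:158992053-158992203 (ER 40.8, GR with Dex 17.2), chr15:64295515-64295665 (ER 39.7, GR 14.0), chr1:159003830-159003980 (ER 33.9, GR 12.9), chr1:121022237-121022387 (ER 29.9, GR 16.7) and chr12:101568644-101568794 (ER 28.6, GR 19.9). Their GR percentiles in the 7438 Dex list lay between 18.1 and 47.1. GR in the 7438 list named Both was higher than with Dex at each of the 5, at 27.4, 18.8, 23.3, 17.0 and 32.5. The 5 were picked for high ER density in the list named Both, and the group as a whole did not show this rise. The median GR density was 15.3 at the 182 of the 225 sites that the GR list named Both held, against 15.9 with Dex. How densities scale between the lists is not stated.

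Members of chromosome 1 with opposite GR outcomes lay side by side. The site at 159005225, which had the strongest GR of all ER-absent sites, lies 1245 bp from the one at 159003830, and that one lies 11627 bp from the one at 158992053. No GR was called at the latter 2 in any of the 4 Afos lists. The sites also differed in GR strength without Afos. They stood at percentile 99.9 (159005225), 18.1 (159003830) and 38.7 (158992053) of the 7438 GR Dex list. The 3 sites span 13322 bp, their ER densities in 7438 cells were 28.8, 33.9 and 40.8, and no Afos ER Dex+E2 site lay within 413025 bp. This group was singled out after its values were seen.

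Some ER-absent sites lay close to the boundary of the rule. Of the 1232 ER-absent sites, 37 lay within 500 bp of an Afos ER Dex+E2 site and 303 within 10000 bp. The same counts over other ER sites absent from the Afos lists were not taken, so these have no background. The nearest were chr2:167649010-167649160 at 14 bp, chr1:161819696-161819846 at 26 bp and chr10:17767279-17767429 at 39 bp, with ER densities of 43.2, 16.6 and 10.4 and GR in all 4 Afos lists. Just inside the retained group were chr16:90737106-90737256, chr6:31468477-31468627 and chr11:114933082-114933232, which shared 27, 33 and 39 bp with an Afos ER site and had ER densities of 10.4, 17.7 and 18.6. These sites on either side of the boundary thus had overlapping ER densities.

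The rule asks for overlap of 150 bp sites, so the ER and GR centres could not lie 150 bp or more apart at ER-absent sites. The same holds for ER-retained sites, and offsets over all ER sites with GR were not taken. The centre of the ER site was a median of 18 bp from the centre of the GR Dex site, and within 25 bp at 63.3% of sites, next to 19 bp and 63.2% for ER-retained sites. The ER-absent sites were scattered over all 20 chromosomes with sites, with a median of 202626 bp to the nearest other one; 177 had another within 10000 bp and 28 within 1000 bp. In each Afos GR list 7 GR sites held 2 or more of them, so a few members share a GR call. The share of gains that were ER-absent ran from 53.2% on chromosome 17 (42 of 79) to 80.0% on chromosome 14 (32 of 40) among the autosomes, and was 5 of 14 on the X chromosome. GR was called in at least 1 Afos list at 74.5% or more of the ER-absent sites of each chromosome.

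A small part of the ER-absent sites was called without hormone. Of the 1232, 58 (4.71%; background over ER sites with GR 8.43%) overlapped a site of an untreated list of either receptor or cell kind, against 1 of 663 ER-retained sites. In 7438 cells the ER list named unt held 34 of them (2.76%; background 5.41%), the GR list named unt 14 (1.14%; background 2.75%) and the GR E2 list 23 (1.87%; background 4.41%). The 7438 ER list with Dex alone, which has 10149 sites, held 38 (3.08%, interval 2.19 to 4.21%; background over ER sites with GR 3.75%). GR was called in at least 1 Afos list at 960 of the 1174 ER-absent sites in no untreated list (81.8%), and at 47 of the 58 others (81.0%).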

How the data were processed

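Sites bound by GR or ER came from 24 deposited lists, 1 per library; the other 15 of 39 samples were not analysed here. The submitters' processing notes list build mm9 and CASAVA 1.8. How reads were aligned and sites called is not stated there. Per the file headers, each site carries the authors' highest and average tag density (a signal, scaling not stated) and a z-score (a score of the authors); a p-value deposited with the Afos lists entered no step here. In the 7438 lists density was at least 10 and z-score at least 15.

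Sites overlapped if they shared at least 1 bp. Shares carry exact (Clopper-Pearson) intervals. The 4 tests over libraries used exact permutation, adjusted by the Benjamini-Hochberg method; functions were tested on simulated data. Sites are not replicates and entered no test. Strength is the percentile of highest density within a list. Named sites are the 5 of highest ER density by number of Afos GR lists (all 4, 1 to 3, none), the 5 of highest 7438 GR density, the 3 of highest summed Afos GR rank, and 3 on each side of the overlap boundary. Members, lists and tests were chosen with earlier results of these data known. The density ratio and the GR sites without ER were added after the data were examined. Genes, motifs and sequences are not given, because no mm9 genome was used here. Same-numbered replicates are not stated to share a culture. Computation used Python 3.11.15, NumPy 2.4.6, SciPy 1.17.1, pandas 2.3.3 and matplotlib 3.10.9.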

Additional observations from a re-analysis of the deposited data

How the results depend on the processing

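The number of ER-absent sites was 1232. It was 338 with 7438 ER sites at or above their list median and 77 with lists read by label, lay between 1245 and 1589 without 1 replicate, and stayed within 1.5 times under the other alternatives. The share with GR in Afos Dex lists (62.2%) was 37.7% by label and 58.5 to 70.3% without 1 replicate. The share in Dex+E2 lists (74.8%) was 85.8% for ER sites at or above the median, 67.8% with the 7438 limits applied to the Afos lists, 51.5% with equal numbers of Afos GR sites (the strongest 5136 of each), 48.7% by label and 72.4 to 82.4% without 1 replicate. GR in at least 1 list (81.7%) was 90.5%, 74.98%, 64.6% and 63.6% in the same order, and 77.6 to 82.6% without 1 replicate. GR in every list (53.2%) was 65.1%, 46.0%, 41.2% and 20.8%, and 58.3 to 65.1% without 1 replicate, where 2 lists are asked for in place of 4. Stricter lists hold fewer GR sites by construction; the cause of the other shifts was not tested.

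The difference between lists with and without Dex (67.8 points) was 69.7 to 71.0 without 1 replicate, where the exact permutation test cannot go below p = 0.333. It was 38.3 with lists read by label and 52.5 with equal numbers of GR sites. With labels permuted within the replicate number (replicate block) it was again 67.8 points, with an exact permutation p = 0.0556, the smallest this block allows. The block turned p for Dex+E2 against Dex (12.6 points) from 0.333 to 0.500 and for ER with E2 (0.345 points) to 0.111. That ER difference was 0.0550 points under the 7438 limits (exact permutation p = 0.733) and 0.325 by label (p = 1.0). The Dex+E2 difference was 2.17 to 23.9 without 1 replicate and reversed to -3.33 with equal numbers of GR sites; the cause was not tested. The lists share only a number: replicate 1 lay 15.6 points above replicate 2 with Dex and 5.28 below it with Dex+E2, though densities at 4740 GR sites in all 4 lists deviated together between same-numbered lists (r = 0.29 across sites). The mean difference of GR shares, ER-absent minus ER-retained, was negative under all 20 alternatives, from -51.1 to -0.0874 points. It was -21.7 to -24.9 without 1 replicate. The 20 include the 4 classes of ER strength and the 4 of GR strength. In the strongest GR class, which gave -0.0874, 285 of 286 ER-absent and all 188 ER-retained sites had GR in all 4 lists. The groups were level there. A set of 3 alternatives was added after the data were examined: without sites in an untreated list, without sites within 500 bp of a 7438 ER E2 site, and retention in both Afos ER lists. Depth is unknown, so absence from a list is absence of a call.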
